A study of Saccharomyces cerevisiae with 24 samples.

Results

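Budding yeast leaves G1 through Start, and the 9 genes described here encode the regulators of that step: the G1 cyclins CLN3 (YAL040C), CLN1 (YMR199W) and CLN2 (YPL256C), the activator BCK2 (YER167W), the inhibitor WHI5 (YOR083W), the transcription factor subunits SWI4 (YER111C), SWI6 (YLR182W) and MBP1 (YDL056W), and the kinase inhibitor SIC1 (YLR079W). They are 9 of the 6157 features in the deposited count table, found by systematic name, and all 9 passed the filter on low counts that 5698 features passed. The set was chosen by function and by 1 measured value, the level of CLN3 in cells without PHO92 against wild type. That comparison is given below as a description without a test. The 9 genes and the other comparisons were also chosen with earlier results of these data known. The table holds 8 groups of 3 libraries, made from polyadenylated RNA of diploid yeast starved in sporulation medium and, per the labels, arrested in early meiosis. Copper sulfate was added to all cultures at 50 µM, 3 h into sporulation medium, and the time of collection after that is not given in the sources used here. All groups were MATa/alpha and shared ura3, lys2 and ho::LYS2, with hisG insertions in leu2, his3 and trp1. The pho92Δ group carried pho92::HYG. In 6 further groups the native gene was also replaced with the hygromycin marker, and HA-tagged PHO92 at the TRP1 locus was driven by the copper-inducible CUP1 promoter. These encoded Pho92 without residues 35 to 42 (Δ35–42), Pho92 with L35A, L38P, I39A or W177A, or the wild-type protein (CUP1-PHO92). The WT group had native PHO92 and no CUP1 construct. Each group has 1 strain number in the table header, so a group may be 1 strain grown 3 times, and p-values then measure the spread between those cultures only.

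Cln3, bound to the kinase Cdc28, starts the transition by acting on Whi5, which otherwise holds back SBF, the complex of Swi4 and Swi6. MBF, the complex of Mbp1 and Swi6, shares the Swi6 subunit, and Bck2 promotes the same transcription by a route that does not need Cln3. SBF and MBF switch on CLN1 and CLN2, whose products mark Sic1 for destruction and so release the kinase that starts DNA replication. In starved diploids the G1 cyclins oppose entry into meiosis, and the meiotic kinase Ime2 takes part in removing Sic1. Pho92 recognises m6A, a methyl mark laid on mRNA in yeast during meiosis, through its YTH domain.

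The promoters of CLN1, CLN2 and SWI4 are shown because these 3 genes each held more than 1 match to the SBF and MBF elements. The SCB was searched as CNCGAAA and the MCB as ACGCGT, on both strands, in the 700 bases before each start codon of the RefSeq R64 genome of strain S288C. Capitals mark the matches.
CLN1, chrXIII:662028-662225, plus strand, R64: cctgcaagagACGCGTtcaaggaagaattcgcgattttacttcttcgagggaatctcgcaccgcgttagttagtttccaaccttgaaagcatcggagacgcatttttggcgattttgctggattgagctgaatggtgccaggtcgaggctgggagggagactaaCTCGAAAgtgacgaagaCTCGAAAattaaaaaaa
CLN2, chrXVI:67136-67230, minus strand, R64: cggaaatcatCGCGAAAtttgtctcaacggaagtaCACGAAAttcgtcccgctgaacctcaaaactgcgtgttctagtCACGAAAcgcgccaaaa
SWI4, chrV:386350-386394, minus strand, R64: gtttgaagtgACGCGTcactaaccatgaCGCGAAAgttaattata
The CLN1 stretch held 1 MCB and 2 SCB matches, and the CLN2 stretch held 3 SCB matches. SWI4 had 1 MCB and 1 SCB match in the stretch and another SCB match 270 bases before its start codon. MBP1 and SIC1 had 1 SCB match each. CLN3, BCK2, WHI5 and SWI6 had neither motif in this window. Of 5999 such windows in the genome, 27.3% held an SCB match, 4.3% held at least 2, 0.55% held at least 3, and 6.98% held an MCB match. The Xbp1 core CTCGAG was found once each before CLN3, CLN1 and SWI6 and in 11% of all windows. The early cell cycle box was searched as a single pattern with a spacer of fixed length. This pattern matched in none of the 9 windows and in 0.25% of all. Other forms and spacings of this element were not searched, so the lack of a match does not show that the element is absent.

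The coding sequences were searched on the sense strand for ANRGACNNNT, where N is any base and R is A or G. This 10-base pattern stands for the m6A mark that Pho92 reads, but other forms of the m6A consensus were not searched. A match shows only that the 10 letters are present, not that the RNA is methylated there. A missing match does not show that other forms are absent. The matches in the 3 cyclins are shown with 10 bases on either side, and capitals mark the pattern.
CLN3: atctgcggccACAGACTATTtctcggatca
CLN1: attcaaatggAAAGACATATcttggatact
CLN2: ttacaaatggAAAGACATATactagacact
In CLN3 the match began at coding base 1291, which is 453 bases from the end. CLN1 and CLN2 had the same 10 letters, beginning at bases 542 and 548, which are 1100 and 1091 bases from the end. Within the last 500 coding bases, CLN3, BCK2, WHI5 and MBP1 held a match, 4 of 9, against 24.4% of 5025 coding sequences. SIC1 had no match anywhere. Methylation itself was not measured in this series. The 9 coding sequences lie in R64 on chromosomes I (CLN3, 65778 to 67520), IV (MBP1, 352877 to 355378), V (SWI4, 382595 to 385876, and BCK2, 518216 to 520771), XII (SIC1, 286820 to 287674, and SWI6, 517940 to 520351), XIII (CLN1, 662644 to 664284), XV (WHI5, 479533 to 480420) and XVI (CLN2, 64977 to 66614). Each is 1 uninterrupted exon, none overlaps another annotated gene, and none shares a 31-base stretch with the rest of the genome, the CLN1 and CLN2 pair included.

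Library totals ran from 16108079 to 36733806 counts. PHO92 (YDR374C), the deleted and induced gene, had 0.279 ± 0.411 CPM in pho92Δ and 859 ± 61.1 CPM in WT (SD, n = 3 each), and between 7571 and 16419 CPM in the 18 CUP1 libraries. CPM here is the count scaled to the TMM-adjusted library size. The header places replicate 2 of L38P and replicate 1 of W177A in batch B and the other 22 libraries in batch A, without saying what kind of batch this is. It gives W177A the strain number of CUP1-PHO92 (10829), and the genotype label of I39A reads L39A. The summed level of 8 early meiotic markers (IME1, IME2, SPO11, HOP1, REC8, ZIP1, DMC1 and MEI4) was 7544 to 10828 CPM in L38P and 14498 to 20445 CPM in the other 7 groups, so the L38P libraries stood apart. Of the haploid mating markers, MFA1 had 0 to 0.707 CPM and MFA2 0 to 0.363 CPM over all libraries. MF(ALPHA)1 had 2.46 to 9.28 CPM, and STE2 and STE3 had 12.8 to 54.6 CPM. Lower abundance in such bulk RNA cannot be told apart from fewer cells of a kind.

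**Figure D1:**
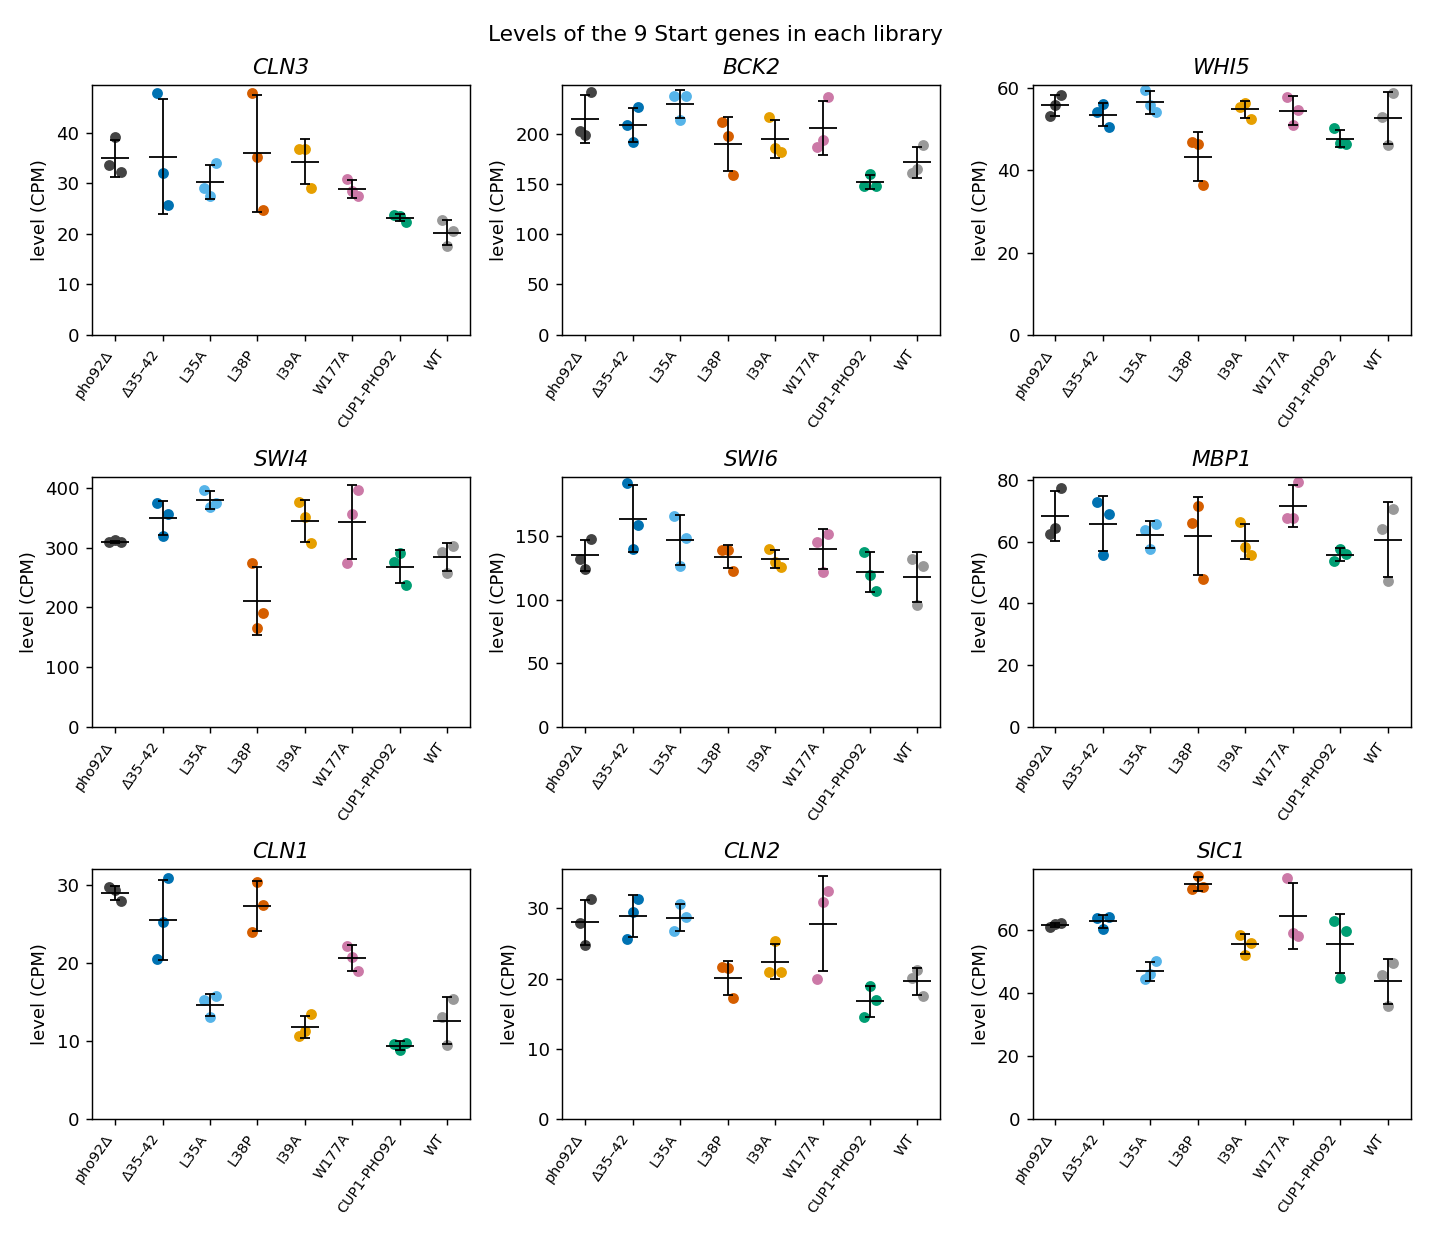
CPM of each of the 9 Start genes (vertical axes, from 0) in the 8 groups, with 1 point per library and the mean ± SD of 3 libraries. CLN1 spans the widest range, with a highest group mean of 29.0 CPM, that of pho92Δ, and a lowest of 9.39 CPM, that of CUP1-PHO92, while MBP1 and WHI5 stay within narrow ranges.

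Per kilobase of coding sequence, averaged over the 24 libraries, SWI4 was the most abundant of the 9 transcripts at 94.8 CPM per kb. BCK2 had 76.7, SIC1 67.9, WHI5 59.1, SWI6 56.6 and MBP1 25.3 CPM per kb. The 3 G1 cyclins were the least abundant, with 17.4 CPM per kb for CLN3, 14.7 for CLN2 and 11.5 for CLN1. The lowest single count among the 9 genes was 161, for CLN1, so none was near the floor of 3 counts (0.0828 to 0.179 CPM).

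All 9 transcripts had higher mean levels in pho92Δ than in WT, with CLN1 first and CLN3 second in size. CLN3, the initiating cyclin, had 33.6, 39.1 and 32.1 CPM in pho92Δ and 22.6, 17.5 and 20.5 CPM in WT, a log2 fold change of 0.79. For CLN1 the levels were 29.7, 29.3 and 28.0 CPM in pho92Δ and 13.0, 9.44 and 15.4 CPM in WT, a log2 fold change of 1.20. In both cyclins every pho92Δ library was above every WT library. CLN2 differed by 0.52, SIC1 by 0.50, BCK2 by 0.32 and the other 4 genes by 0.08 to 0.18 on the log2 scale. The groups did not overlap for 6 of the 9 genes. The share of all features without overlap was not counted, so this number has no background to be judged by. The median of the 9 log2 fold changes was 0.32, beside 0.003 over all 5698 features. These values chose CLN3 and carry no test.

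The 5 mutants were set against CUP1-PHO92, which asks whether each change in Pho92 alters these transcripts when protein comes from the same induced construct. These comparisons hold no pho92Δ or WT library, but the genes and comparisons were chosen with earlier results of these data known. CLN1 rose in 4 of the 5 mutants, CLN2 and BCK2 rose in 3 and 4, CLN3 rose in 2, and none of the 9 genes fell in any mutant by this test (DESeq2 called SWI4 lower in L38P). In Δ35–42, 5 of 9 were called higher, where 11.9% of all features were higher and 9.97% lower at a Benjamini-Hochberg adjusted p under 0.05 in edgeR's quasi-likelihood test. In L35A, 4 of 9 were higher against 11.3% of all features, with 11.4% of all lower. In L38P, 4 of 9 were higher against 23.1% of all features, with 20.9% of all lower. In W177A, 3 of 9 were higher against 14.9% of all features, with 13% of all lower. In I39A none of 9 was called, where 0.0527% of all features were higher and 0% lower; 4 of the 9 had an unadjusted p under 0.05, and DESeq2 also called 0. The median log2 fold change of the 9 genes was 0.43 in Δ35–42, 0.39 in L35A, 0.26 in L38P, 0.32 in I39A and 0.35 in W177A. Over all features the medians lay between -0.021 and 0.042. The 5 comparisons share the CUP1-PHO92 libraries.

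**Figure D2:**
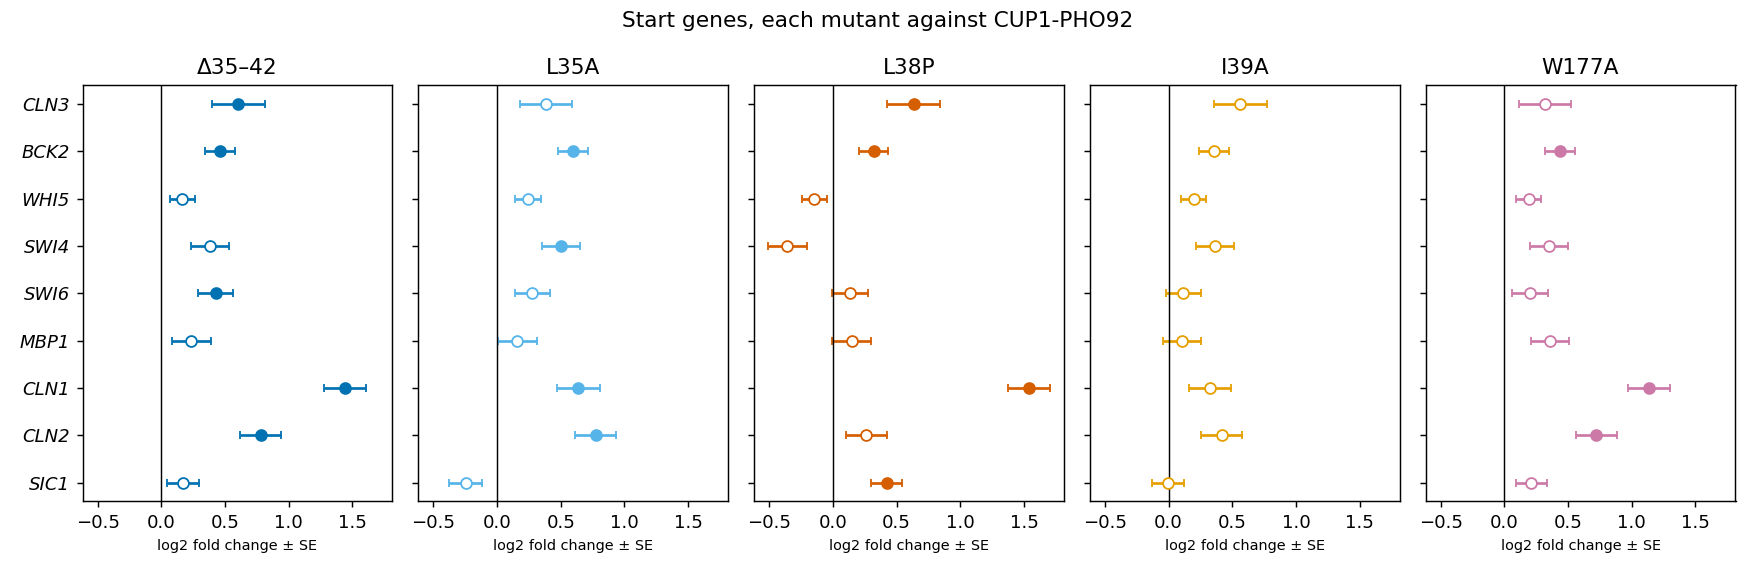
Log2 fold change ± SE of each Start gene in 5 mutants against CUP1-PHO92 (horizontal axes), with filled points for an adjusted p under 0.05. CLN1 reaches 1.44 in Δ35–42 and 1.54 in L38P, and no filled point lies left of 0.

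CLN3 was above CUP1-PHO92 in every library of all 5 mutants, although the difference passed the test in only 2 of them. Δ35–42 had 47.8, 32.0 and 25.7 CPM, against 23.7, 23.4 and 22.3 CPM in CUP1-PHO92, a log2 fold change of 0.60 (SE 0.207, edgeR adjusted p 0.042). L38P had 47.9, 35.2 and 24.7 CPM, a log2 fold change of 0.63 against the same CUP1-PHO92 libraries (SE 0.206, edgeR adjusted p 0.0181). Replicate 1 was the high library in both. Without it the log2 fold change was 0.32 in Δ35–42 (edgeR adjusted p 0.284) and 0.37 in L38P (edgeR adjusted p 0.143), so each call rested on that library. Leaving out any 1 of the CUP1-PHO92 libraries also ended the Δ35–42 call, with adjusted p 0.0765 to 0.115. I39A had 36.7, 36.8 and 29.0 CPM, and its log2 fold change of 0.56 (95% interval 0.13 to 1.00) did not pass the test (edgeR adjusted p 0.285). L35A had 29.1, 27.5 and 34.0 CPM, with a log2 fold change of 0.39 (95% interval -0.05 to 0.82, edgeR adjusted p 0.186). W177A had the narrowest spread of the mutants, 30.8, 28.4 and 27.4 CPM, and a log2 fold change of 0.32 (95% interval -0.12 to 0.76, edgeR adjusted p 0.255). Ordered by mean, CLN3 ran from L38P (35.9 CPM) through Δ35–42, pho92Δ, I39A, L35A and W177A (28.8 CPM) to CUP1-PHO92 (23.1 CPM) and WT (20.2 CPM). W177A and CUP1-PHO92 were the only neighbours in that order whose libraries did not overlap.

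BCK2, the Cln3-independent activator, rose in Δ35–42, L35A, L38P and W177A. L35A was highest with 238, 214 and 238 CPM, against 148, 160 and 148 CPM in CUP1-PHO92, a log2 fold change of 0.60 (SE 0.117, edgeR adjusted p 0.00171). Δ35–42 had 209, 192 and 227 CPM, a log2 fold change of 0.46 (edgeR adjusted p 0.00906). These groups did not overlap CUP1-PHO92, and neither did W177A at 187, 194 and 237 CPM, a log2 fold change of 0.44 (edgeR adjusted p 0.00911, but 0.0688 without replicate 3 of W177A). L38P, at 212, 198 and 159 CPM, overlapped CUP1-PHO92 in 1 library. Its log2 fold change of 0.32 (edgeR adjusted p 0.0321) did not hold: it was lost without replicate 1 (0.23, adjusted p 0.141) or 2 of L38P (adjusted p 0.106), without replicate 1 or 3 of CUP1-PHO92 (adjusted p 0.0873 and 0.083), and in the fit without both batch B libraries (adjusted p 0.09). I39A had 217, 186 and 182 CPM and a log2 fold change of 0.36 (95% interval 0.11 to 0.61, edgeR adjusted p 0.249).

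WHI5, the inhibitor of SBF, was not called in any mutant against CUP1-PHO92. The group means of Δ35–42, L35A, I39A and W177A lay between 53.6 and 56.6 CPM, against 50.3, 46.7 and 46.4 CPM in the CUP1-PHO92 libraries. Every library of these 4 mutants was above CUP1-PHO92. The log2 fold changes of those 4 mutants were 0.17 to 0.24. L38P had 47.0, 46.4 and 36.4 CPM, a log2 fold change of -0.14 (95% interval -0.35 to 0.07, edgeR adjusted p 0.247).

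Of the transcription factor subunits, SWI4 passed the test against CUP1-PHO92 in L35A and SWI6 in Δ35–42. SWI4, the DNA-binding subunit of SBF, had 397, 368 and 374 CPM in L35A and 276, 291 and 238 CPM in CUP1-PHO92. The groups did not overlap, and the log2 fold change was 0.50 (SE 0.151, edgeR adjusted p 0.0222). This call was lost without replicate 1 of L35A (adjusted p 0.0662) and without replicate 1 or 3 of CUP1-PHO92 (adjusted p 0.0501 and 0.113). SWI4 had 274, 165 and 191 CPM in L38P, the lowest group mean of the 8, with a log2 fold change of -0.36 against CUP1-PHO92 (95% interval -0.68 to -0.04, edgeR adjusted p 0.0601). DESeq2 called this difference (-0.38, adjusted p 0.0419), and edgeR did too without replicate 1 of L38P (-0.60, adjusted p 0.00166) or replicate 3 of CUP1-PHO92 (-0.44, adjusted p 0.0419). Without replicate 2 of L38P, the batch B library, the value was -0.21 (adjusted p 0.305). In Δ35–42 SWI4 had a log2 fold change of 0.38 against CUP1-PHO92 (edgeR adjusted p 0.0721, DESeq2 adjusted p 0.047), and in W177A 0.35 (edgeR adjusted p 0.0862, but 0.48 and 0.0277 without replicate 1, the batch B library, and 0.23 and 0.323 without replicate 3). SWI6, the regulatory subunit of SBF and MBF, had 192, 140 and 159 CPM in Δ35–42 and 138, 120 and 107 CPM in CUP1-PHO92, and rose by 0.43 on the log2 scale (SE 0.138, edgeR adjusted p 0.0327). Leaving out replicate 1 of Δ35–42 gave 0.29 (adjusted p 0.178), and leaving out replicate 3 of that group or replicate 2 or 3 of CUP1-PHO92 gave adjusted p 0.0628 to 0.143. MBP1, the DNA-binding subunit of MBF, was not called in any mutant. Its means were 60.1 to 71.5 CPM in the mutants and 55.8 CPM in CUP1-PHO92, with log2 fold changes of 0.11 to 0.36, the highest in W177A (edgeR adjusted p 0.0822, and 0.0319 in a fit of those 6 libraries alone).

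CLN1, an SBF target, had the largest differences of the 9 genes in 3 of the mutants. L38P had 24.0, 30.4 and 27.4 CPM, against 9.62, 8.78 and 9.78 CPM in CUP1-PHO92, the lowest of the 8 groups, a log2 fold change of 1.54 (SE 0.166, edgeR adjusted p 8.93e-06). Δ35–42 had 20.5, 25.2 and 30.9 CPM, a log2 fold change of 1.44 (SE 0.166, edgeR adjusted p 1.28e-05). In these 2 mutants every library had more than 20 CPM, above every CUP1-PHO92 library. W177A had 22.2, 20.8 and 18.9 CPM, a log2 fold change of 1.14 (SE 0.165, edgeR adjusted p 6.25e-05). L35A had 15.2, 13.0 and 15.7 CPM, a log2 fold change of 0.64 (SE 0.166, edgeR adjusted p 0.00978). These 4 calls held in all 6 fits that each left out 1 library. I39A was closest to CUP1-PHO92, with 10.6, 11.3 and 13.4 CPM and a log2 fold change of 0.32 (95% interval -0.03 to 0.68, edgeR adjusted p 0.412). By mean, pho92Δ, L38P, Δ35–42 and W177A (29.0 to 20.6 CPM) preceded L35A, WT and I39A (14.6 to 11.8 CPM), and the libraries of W177A and L35A did not overlap.

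CLN2, the paralog of CLN1, was ordered differently among the mutants. Δ35–42 had 25.6, 29.5 and 31.4 CPM, against 14.5, 18.9 and 16.9 CPM in CUP1-PHO92 (log2 fold change 0.78, SE 0.161, edgeR adjusted p 0.00217). L35A had 26.8, 30.6 and 28.8 CPM (log2 fold change 0.78, SE 0.162, edgeR adjusted p 0.00252). W177A had 20.0, 30.9 and 32.5 CPM, a log2 fold change of 0.72 (SE 0.161, edgeR adjusted p 0.00294). Its low library is the one of batch B. All 3 mutants were above every CUP1-PHO92 library, and their calls held in each fit that left out 1 library. L38P had 21.6, 21.5 and 17.3 CPM, which overlapped CUP1-PHO92, and a log2 fold change of 0.26 (95% interval -0.08 to 0.60, edgeR adjusted p 0.195). I39A had 21.0, 25.3 and 20.9 CPM and a log2 fold change of 0.42 (95% interval 0.07 to 0.76, edgeR adjusted p 0.31).

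**Figure D3:**
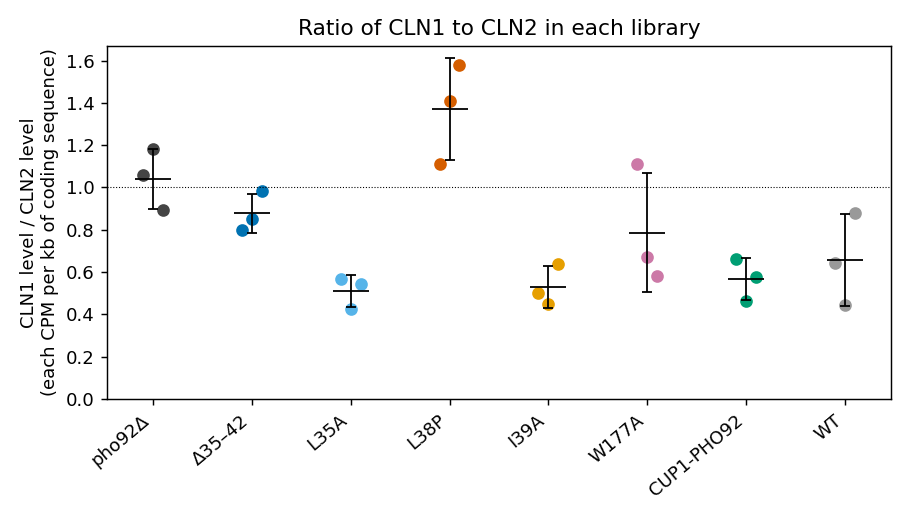
Ratio of the CLN1 level to the CLN2 level, each in CPM per kb of coding sequence (vertical axis, from 0), in every library of the 8 groups, with the mean ± SD of 3 libraries. All 3 L38P libraries lie above 1, and all libraries of L35A, I39A, CUP1-PHO92 and WT lie below 1.

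The balance of the 2 paralogs, a quantity picked after its values were seen and given without a test, was 1.11, 1.41 and 1.58 in L38P as CLN1 over CLN2, per kilobase. It was 0.566, 0.423 and 0.542 in L35A, and 0.661, 0.463 and 0.578 in CUP1-PHO92. CLN1 thus exceeded CLN2 in every L38P library and was below CLN2 in every library of the other 2. The mean ratio was 1.04 ± 0.144 in pho92Δ, 0.878 ± 0.0931 in Δ35–42, 0.529 ± 0.098 in I39A and 0.657 ± 0.217 in WT (SD, n = 3 each). W177A was split, with 1.11 in the batch B library and 0.671 and 0.58 in the other 2.

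SIC1, the inhibitor of the S-phase kinase, rose in L38P alone among the tests against CUP1-PHO92. It had 72.9, 77.1 and 73.5 CPM in L38P and 62.6, 44.8 and 59.5 CPM in CUP1-PHO92. The groups did not overlap, and the log2 fold change was 0.42 (SE 0.125, edgeR adjusted p 0.0106). Without replicate 2 of CUP1-PHO92, its low library, the difference was 0.29 (adjusted p 0.0817). The other mutants had log2 fold changes of -0.25 (L35A) to 0.21 (W177A), with adjusted p of 0.16 and more. The early meiotic marker sum of L38P was the lowest of the groups beside all of these L38P values, and its part in them was not tested.

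The 4 substitutions were also set against Δ35–42, which asks whether changing 1 residue differs from removing the segment. SWI4, CLN2 and WHI5 were lower in L38P than in the segment deletion, and CLN1 was lower in I39A. In L38P, 3 of 9 genes were lower and none higher, where 16.9% of all features were lower and 19.4% higher. In I39A, 1 of 9 was lower, where 0.702% of all features were lower and 1.02% higher. In L35A none of 9 was called by edgeR, where 0.0527% of all features were lower and 0% higher; 2 of the 9, CLN1 and SIC1, had an unadjusted p under 0.05, and DESeq2 called both. In W177A none of 9 was called, where 0.193% of all features were higher and 0.0527% lower. For W177A, 0 of the 9 had an unadjusted p under 0.05 and DESeq2 called 0.

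SWI4 was lower in L38P than in Δ35–42, with 274, 165 and 191 CPM in L38P and 374, 319 and 357 CPM in Δ35–42. All L38P libraries were below all Δ35–42 libraries, and the log2 fold change was -0.74 (SE 0.151, edgeR adjusted p 0.00124). CLN2 was lower by the levels given above, with a log2 fold change of -0.52 (SE 0.16, edgeR adjusted p 0.0165). Without replicate 3 of L38P it was -0.42 (adjusted p 0.082), and without replicate 3 of Δ35–42 it was -0.45 (adjusted p 0.051). WHI5 had 47.0, 46.4 and 36.4 CPM in L38P and 54.3, 56.1 and 50.5 CPM in Δ35–42, a log2 fold change of -0.31 (SE 0.0987, edgeR adjusted p 0.02). Without replicate 3 of L38P, the low library, it was -0.20 (adjusted p 0.123), and without replicate 1 or 2 of Δ35–42 adjusted p was 0.0615 and 0.0687. CLN1 and CLN3 were not called between these mutants. Their log2 fold changes were 0.09 (95% interval -0.24 to 0.43) for CLN1 and 0.03 (95% interval -0.40 to 0.46) for CLN3.

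CLN1 was lower in I39A than in the segment deletion, and lower in L35A without passing the test. It was 10.6, 11.3 and 13.4 CPM in I39A and 20.5, 25.2 and 30.9 CPM in Δ35–42, a log2 fold change of -1.12 (SE 0.163, edgeR adjusted p 0.0019) with no overlap. A fit of these 6 libraries alone gave -1.14 and an adjusted p of 0.0689. L35A, at 15.2, 13.0 and 15.7 CPM, was also below every Δ35–42 library, with a log2 fold change of -0.81 (SE 0.162) that did not pass the test (edgeR adjusted p 0.0635). With 1 library left out, the edgeR adjusted p ran from 0.0169 to 0.412. Same-numbered libraries of L35A and Δ35–42 deviated together, and with the replicate block the adjusted p was 0.0127, in a fit that called 386 of all features and not 3. SIC1 was 44.4, 45.9 and 50.2 CPM in L35A and 63.6, 60.2 and 63.9 CPM in Δ35–42, again without overlap. Its log2 fold change was -0.42 (SE 0.125, edgeR adjusted p 0.0753), and the block gave an adjusted p of 0.0338. CLN3 stayed within -0.29 (W177A) and 0.03 (L38P) on the log2 scale in the 4 substitutions against Δ35–42, with 95% intervals between -0.72 and 0.46.

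**Figure D4:**
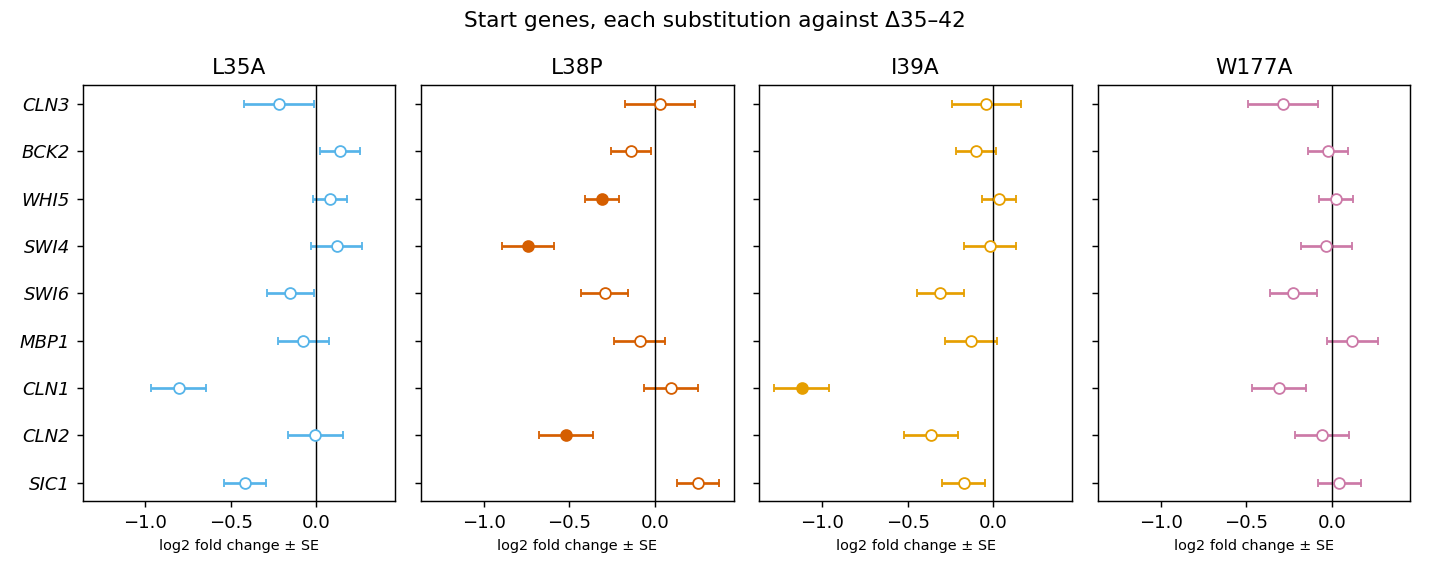
Log2 fold change ± SE of each Start gene in 4 substitutions against Δ35–42 (horizontal axes), with filled points for an adjusted p under 0.05. Filled points are WHI5, SWI4 and CLN2 in L38P and CLN1 in I39A, all left of 0.

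CUP1-PHO92 was compared with WT for the 8 genes other than CLN3, which asks whether PHO92 far above its native level changes them. None of the 8 was called by edgeR, where 3.93% of all features were higher and 3% lower, and DESeq2 called none. CLN1 and SIC1 had an unadjusted p under 0.05. CLN1 had 9.62, 8.78 and 9.78 CPM in CUP1-PHO92 and 13.0, 9.44 and 15.4 CPM in WT, a log2 fold change of -0.43 (95% interval -0.78 to -0.08, edgeR adjusted p 0.126). SIC1 had 62.6, 44.8 and 59.5 CPM in CUP1-PHO92 and 45.5, 35.9 and 49.5 CPM in WT, a log2 fold change of 0.35 (95% interval 0.08 to 0.62, edgeR adjusted p 0.0984). The groups overlapped for both genes. Without replicate 2 of WT, its low library, CLN1 passed (-0.59, adjusted p 0.0314), and without replicate 2 of CUP1-PHO92 SIC1 did (0.48, adjusted p 0.0254). Without replicate 3 of WT, CLN1 had -0.26 (adjusted p 0.414), and without replicate 2 of WT, SIC1 had 0.24 (adjusted p 0.274). CLN3, given without a test, had a log2 fold change of 0.19.

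Set beside pho92Δ, also without a test, the CUP1-PHO92 mean was lower for all 9 genes, with every library below for 7 of them. The median log2 fold change was -0.289 over the 9 genes and 0.002 over all features. For this and the other groups set beside pho92Δ, the share of all features without overlap was not counted. The log2 fold change was -1.63 for CLN1, -0.74 for CLN2 and -0.59 for CLN3. Δ35–42 had a median of 0.009 over the 9 genes and 0.001 over all features. Its libraries overlapped those of pho92Δ for 8 of 9, which does not by itself show likeness. SWI4 was the exception, all above. The other mutants had these genes with every library below pho92Δ: CLN1 (-1.30) and SIC1 (-0.15) in I39A, CLN1 (-0.99) and SIC1 (-0.39) in L35A, CLN1 (-0.49) and CLN3 (-0.28) in W177A, and WHI5 (-0.37), SWI4 (-0.56) and CLN2 (-0.48) in L38P. Every library was above pho92Δ for SWI4 in L35A (0.29) and for SIC1 in L38P (0.27).

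Genes that act on or under the 9 were described in 5 lists taken from textbook roles. The list of transcription factors that act on CLN3 and SIC1 included MCM1, YOX1, YHP1, ASH1, SWI5, AZF1 and XBP1. Against CUP1-PHO92 the list had 4 of 8 genes higher and none lower in Δ35–42 (11.9% and 9.97% of all features). In L38P it also had 4 higher and none lower (23.1% and 20.9% of all features). In L35A it had 4 higher and 1 lower (11.3% and 11.4% of all features), and in W177A 6 higher and 1 lower (14.9% and 13% of all). XBP1, a repressor of G1 cyclin genes, was at 246 ± 39.8 CPM in Δ35–42, 246 ± 25.3 in L35A, 297 ± 6.59 in W177A and 104 ± 13.6 CPM in CUP1-PHO92 (SD, n = 3 each). Its log2 fold changes were 1.25 in Δ35–42, 1.25 in L35A and 1.52 in W177A (edgeR adjusted p 3.13e-05, 6.05e-05 and 3.43e-06). In L38P it was at 141 ± 28.8 CPM and 0.80 lower on the log2 scale than in Δ35–42 (edgeR adjusted p 0.000902). ASH1, a repressor that acts in daughter cells, rose by 0.88 in Δ35–42, 0.90 in L38P and 0.81 in W177A (edgeR adjusted p 0.000187, 4.07e-05 and 0.000227). YHP1, a homeodomain repressor, was up by 1.06 in L38P (edgeR adjusted p 0.0228).

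Cofactors of SBF and MBF and regulators of Cln3 (STB1, NRM1, MSA1, MSA2, SRL3, WHI3, WHI4, YDJ1 and SSA1) went both ways. Of these 9 genes, 3 were higher and 1 lower in Δ35–42 against CUP1-PHO92, beside 11.9% and 9.97% of all features. In L35A the counts were 1 and 1 (11.3% and 11.4% of all). In L38P they were 3 and 4 (23.1% and 20.9% of all), and in W177A 4 and 1 (14.9% and 13% of all). MSA2, a cofactor of both complexes, was at 38 ± 8.2 CPM in L38P and 10.9 ± 2.33 CPM in CUP1-PHO92, a log2 fold change of 1.80 (edgeR adjusted p 4.07e-05). It rose by 1.10 in W177A and 0.78 in Δ35–42 (edgeR adjusted p 0.00471 and 0.0412). STB1, which binds Swi6, was up by 1.26 in L38P, 0.96 in W177A and 0.71 in Δ35–42 (edgeR adjusted p 5.12e-05, 0.00112 and 0.0118). In L35A, WHI3, an RNA-binding protein that holds back CLN3 mRNA, was up by 0.57, and NRM1, the corepressor of MBF, fell by 0.48 (edgeR adjusted p 0.0312 and 0.0131). SSA1, a chaperone, was 0.87 lower on the log2 scale in L38P than in Δ35–42 (edgeR adjusted p 0.00498).

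Among cyclin partners and genes of Sic1 turnover (CDC28, CKS1, CLB5, CLB6, PCL1, PCL2, FAR1, CDC4, CDC34, CDC53, SKP1 and IME2), 3 of 12 were higher and 2 lower in Δ35–42 against CUP1-PHO92. The counts were 2 higher and 0 lower in L35A, 2 and 6 in L38P, and 2 and 2 in W177A. Shares of all features, higher and lower, were 11.9% and 9.97% in Δ35–42 and 11.3% and 11.4% in L35A. For L38P the shares were 23.1% and 20.9%, and for W177A 14.9% and 13%. CDC28, the kinase that the cyclins bind, had 202 ± 28.7 CPM in Δ35–42, 208 ± 7.34 in W177A and 300 ± 1.8 CPM in CUP1-PHO92 (SD, n = 3 each). It fell by 0.57 in Δ35–42 and by 0.53 in W177A (edgeR adjusted p 0.0041 and 0.00493). CDC34, the ubiquitin-conjugating enzyme that acts on Sic1, was up by 0.55 in L35A and 0.46 in W177A (edgeR adjusted p 0.000123 and 0.000245). CDC4, the F-box protein that binds Sic1, was up by 0.35 in L35A (edgeR adjusted p 0.00314). IME2 had 1698 ± 402 CPM in L38P and 4514 ± 729 CPM in CUP1-PHO92 (SD, n = 3 each), a log2 fold change of -1.41 (edgeR adjusted p 1.04e-05), and is also 1 of the 8 early meiotic markers. CDC53, the cullin of the ligase for Sic1, was 0.53 lower in L38P than in Δ35–42 (edgeR adjusted p 0.00153).

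SBF targets (PCL1, PCL2, HO, YOX1, FKS1, MNN1, OCH1, GIC1, GIC2, SVS1, EXG1 and KRE6; HO is not analysed here) had 1 to 5 genes higher in the 4 mutants with any call. Against CUP1-PHO92, 2 of 11 were higher and none lower in Δ35–42, beside 11.9% and 9.97% of all features. In L35A 2 were higher and 1 lower (11.3% and 11.4% of all). In L38P the counts were 5 and 0 (23.1% and 20.9% of all), and in W177A 1 and 1 (14.9% and 13% of all). PCL1, a cyclin of the kinase Pho85, was up by 1.09 in L38P and by 0.64 in Δ35–42 (edgeR adjusted p 0.000131 and 0.0188), and stands in the previous list too. GIC2, an effector of Cdc42, was up by 0.72 in Δ35–42, 0.78 in L35A and 0.92 in W177A (edgeR adjusted p 0.00193, 0.00125 and 0.000167). KRE6, a cell wall glucan synthesis gene, was up by 0.58 in L35A (edgeR adjusted p 0.0357), EXG1, an exoglucanase gene, was up by 0.51 in L38P (edgeR adjusted p 0.0418), and YOX1, a repressor, fell by 0.48 in W177A (edgeR adjusted p 0.0181).

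MBF targets (among them RNR1, POL1, POL2, CDC9, CDC21, CDC6, CLB5, CLB6, RAD27, RFA1, RFA2, POL30, TOS4, DUN1, MCD1, SMC3 and PDS5) had calls in both directions. Against CUP1-PHO92, 5 of 18 were higher and 4 lower in Δ35–42, beside 11.9% and 9.97% of all features. In L35A 3 were higher and 2 lower (11.3% and 11.4% of all). In L38P the counts were 8 and 4 (23.1% and 20.9% of all), and in W177A 9 and 4 (14.9% and 13% of all). MCD1, the mitotic cohesin subunit, had 24.5 ± 4.52 CPM in Δ35–42, 21.0 ± 5.56 in L35A, 32.2 ± 5.16 in L38P, 38 ± 2.3 in W177A and 11.8 ± 1.86 CPM in CUP1-PHO92 (SD, n = 3 each). The log2 fold changes of these 4 mutants were 1.05, 0.83, 1.45 and 1.68 (edgeR adjusted p 0.00191, 0.00939, 4.05e-05 and 1.58e-05). CDC6, which loads the replicative helicase, moved the other way, by -0.76 in Δ35–42, -0.92 in L35A and -0.96 in W177A (edgeR adjusted p 0.0204, 0.00692 and 0.00397). In L38P it was 0.77 higher than in Δ35–42 (edgeR adjusted p 0.0124). RAD27, a flap nuclease gene, was up by 1.34 in L38P (edgeR adjusted p 0.00015).

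**Figure D5:**
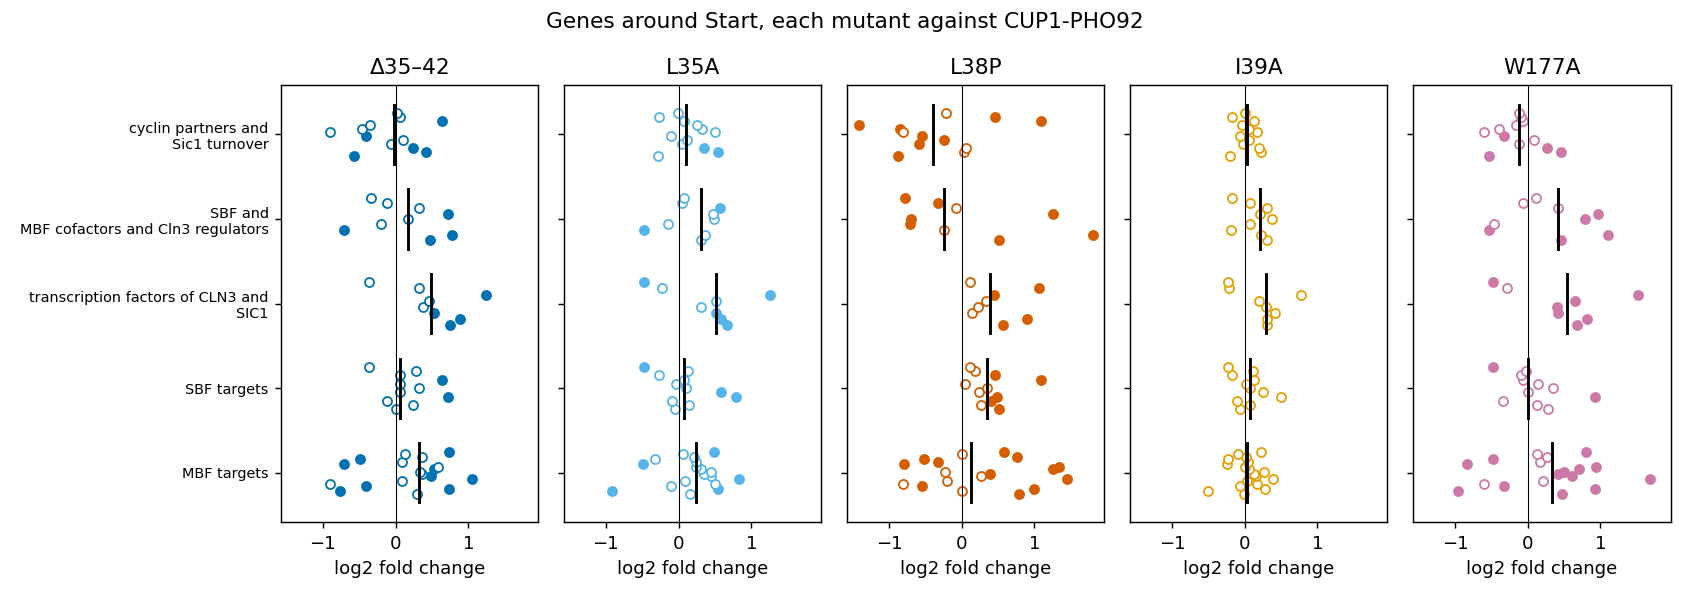
Log2 fold change of every measured gene of the 5 lists in each mutant against CUP1-PHO92 (horizontal axes), with filled points for an adjusted p under 0.05 and a bar at the list median. In I39A no point is filled, and in W177A 6 of 8 transcription factors are filled to the right of 0.

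By edgeR without the replicate block, 0 of the 53 measured genes in the 5 lists were called in I39A against CUP1-PHO92, in L35A against Δ35–42 or in W177A against Δ35–42. At most 0.193% of all features were called there in either direction. At an unadjusted p under 0.05 the list genes numbered 11, 11 and 5 in that order. Same-numbered libraries deviated together in these comparisons, and the list genes called with the block were not counted. DESeq2 called XBP1 in I39A against CUP1-PHO92, PCL1 in W177A against Δ35–42, and CLB6, FAR1, IME2 and PCL1 in L35A against Δ35–42. Against Δ35–42, I39A had NRM1 higher by 0.52 (edgeR adjusted p 0.0476). ASH1 and TOS4, a gene of the replication stress response, fell there by 0.58 and 0.51 (edgeR adjusted p 0.0318 and 0.0479). The fit of the 6 libraries compared lost the calls of NRM1, ASH1 and TOS4 (edgeR adjusted p 0.186, 0.0689 and 0.0689). In L38P against Δ35–42, where 19.4% of all features were higher and 16.9% lower, the lists had calls in both directions. Higher and lower calls numbered 1 and 4 of 12 for cyclin partners and 3 and 2 of 9 for cofactors. They numbered 1 and 2 of 8 for transcription factors, 3 and 0 of 11 for SBF targets, and 4 and 3 of 18 for MBF targets. MSA2, RAD27, GIC1, an effector of Cdc42, and YOX1 were higher there by 1.02, 0.75, 0.51 and 0.48, and IME2 fell by 1.07 (edgeR adjusted p 0.00539, 0.0147, 0.00978, 0.0138 and 0.000162). In CUP1-PHO92 against WT, CDC34 fell by 0.53, ASH1 by 0.65 and KRE6 by 0.74 (edgeR adjusted p 0.000717, 0.00557 and 0.0235). YOX1 was higher there by 0.58 (edgeR adjusted p 0.0182). A fit of the 6 libraries compared held none of these calls. There the edgeR adjusted p was 0.0842 for CDC34, 0.0715 for ASH1, 0.198 for KRE6 and 0.118 for YOX1.

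Of the 53 calls named from the lists, 33 held in every fit that left out 1 library and 20 did not. The lost ones were PCL1, STB1, MSA2 and CDC6 in Δ35–42 against CUP1-PHO92, NRM1, WHI3, KRE6 and MCD1 in L35A, EXG1 and YHP1 in L38P, and YOX1 in W177A. Against Δ35–42 they were CDC6, RAD27, YOX1 and GIC1 in L38P and NRM1, ASH1 and TOS4 in I39A, and in CUP1-PHO92 against WT they were YOX1 and KRE6. Without the batch B library, EXG1 and YHP1 in L38P against CUP1-PHO92 had adjusted p 0.101 and 0.0752. RAD27 and YOX1 in L38P against Δ35–42 then had log2 fold changes of 0.57 and 0.27 (adjusted p 0.0927 and 0.0947). XBP1, CDC28, CDC34, GIC2 and IME2 kept each of the calls given for them against CUP1-PHO92 in these fits.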

How the data were processed

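Polyadenylated RNA of 24 yeast cultures was sequenced as strand-specific paired-end libraries, per the labels' protocols. The authors deposited 1 table of raw counts per annotated feature, whole numbers without normalization. STAR 2.7.10a, RSEM 1.3.1 and DESeq2 1.48.1 are listed in the submitters' processing notes; their roles, the strand setting and the genome build are not given in the sources used here, and counts by RSEM could be rounded estimates. Groups and replicate numbers came from the sample titles.

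R 4.3.3 was used with edgeR 4.0.16 (on limma 3.58.1) and, for an alternative, DESeq2 1.42.0. Library sizes were TMM-scaled, and filterByExpr left 5698 of 6157 features (459 removed). A single quasi-likelihood model with 8 group means took in all 24 libraries (16 residual degrees of freedom). In it 10 comparisons were tested with Benjamini-Hochberg adjustment over the 5698 features at a threshold of 0.05, with no minimum fold change. Features were matched to RefSeq R64 by locus tag (5620 matched) for names, coding lengths and sequences. The method was tested on data simulated from the observed means and its own fitted dispersions. The simulation held no pairing, batch or outlying library, so it cannot show how the method handles those. Floors are 3 counts and cover counting error only, since the reads carry no molecular identifiers and may repeat molecules.

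The 9 genes, the lists and the comparisons were chosen with earlier results of these data known. From the lists, a gene is named in a comparison if it is called there and is among the 2 of its list with the largest absolute log2 fold change; 2 list genes enter the counts but are not reported here. Comparisons with pho92Δ, and CLN3 in CUP1-PHO92 against WT, were not tested because those libraries chose CLN3.

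Alternatives were RLE scaling, no filter, the replicate number as a block, a fit of the 6 libraries compared, DESeq2, leaving out each library in turn, and leaving out the 2 libraries of batch B. Same-numbered libraries of the 2 groups were taken as paired where all 3 correlations of their deviations from the group means, across features, were over 0.1. This held for Δ35–42, L35A and I39A against CUP1-PHO92 and for L35A, I39A and W177A against Δ35–42 (r of 0.147 to 0.629); the pairing comes from the data, not the labels. Replicates of a group were not duplicates, with correlations of log2 CPM of 0.9716 to 0.9954. Within batch B no comparison could be made, because each of its libraries stood alone in its group.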

Additional observations from a re-analysis of the deposited data

Results flagged for a closer look

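Effects against CUP1-PHO92 differed between mutants in 4 cases, by the tested contrast of the mutants themselves. The effect of L38P minus that of Δ35–42 was -0.3098 for WHI5, -0.7394 for SWI4 and -0.5186 for CLN2 on the log2 scale, with all 3 L38P libraries below all 3 Δ35–42 libraries (edgeR adjusted p 0.02, 0.00124 and 0.0165). The early meiotic marker sum was 7544 to 10828 CPM in L38P and 14498 to 17166 CPM in Δ35–42, and its part in these differences was not tested. The effect of I39A minus that of Δ35–42 was -1.1205 for CLN1, with all 3 I39A libraries below all 3 Δ35–42 libraries (edgeR adjusted p 0.0019).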

How the results depend on the processing

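For the 9 genes, no filter changed no count of called genes by over 1.5 times and no direction or call, and neither did RLE scaling except for the sign of CLN3 in L38P against Δ35–42 (-0.0053; DESeq2 -0.007). The fit of 6 libraries called 3 of the 9 in Δ35–42 against CUP1-PHO92, 2 in L38P against CUP1-PHO92 and 0 in I39A against Δ35–42. It ended both CLN3 calls against CUP1-PHO92, with 0.61 in Δ35–42 (adjusted p 0.0849) and 0.62 in L38P (adjusted p 0.0506). In L35A against Δ35–42, DESeq2, the replicate block and the fit without batch B each called 2 genes, CLN1 and SIC1, against 0. The replicate block also called SWI4 lower in L38P against CUP1-PHO92 (adjusted p 0.0495) and SWI6 lower in L38P against Δ35–42 (adjusted p 0.0453), where the numbers did not pair the libraries, and changed no other call of the 9 genes. Of 53 calls named from the lists, DESeq2, RLE scaling and the block lost 0, no filter 1 (NRM1 in I39A against Δ35–42, adjusted p 0.0594), the fit without batch B 4 and the fit of 6 libraries 13.

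With 1 library left out, the genes called against CUP1-PHO92 numbered 0 to 0 in I39A, 3 to 5 in Δ35–42, 3 to 5 in L35A, 2 to 4 in W177A and 3 to 4 in L38P. Against Δ35–42 they numbered 1 to 1 in I39A, 0 to 1 in L35A, 0 to 0 in W177A and 1 to 3 in L38P, and in CUP1-PHO92 against WT 0 to 1. CLN3 against CUP1-PHO92 ranged over 0.50 to 0.67 in I39A, 0.32 to 0.79 in Δ35–42, 0.37 to 0.84 in L38P, 0.27 to 0.35 in W177A and 0.29 to 0.46 in L35A. Against Δ35–42 it ranged over -0.22 to 0.25 in I39A, -0.40 to 0.067 in L35A, -0.47 to 0.0007 in W177A and -0.23 to 0.31 in L38P, changing sign in each. It was positive without replicate 1 of Δ35–42 in L35A (0.067), I39A (0.25) and W177A (0.0007), and without replicate 3 of I39A (0.0597). In L38P it was negative without replicate 1 of L38P (-0.23) or replicate 2 (-0.0345) or 3 (-0.15) of Δ35–42. The cause of these changes was not tested.

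CLN1 rests on 161 to 880 counts a library, and 3 libraries a group limit every interval.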

Other observations

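The 5 features whose log2 CPM followed that of CLN3 most closely over the 24 libraries, of 5212 with a mean of at least 10 CPM, were AFT1, SIT1, ECM33, NHX1 and TYE7. Pearson's r with CLN3 was 0.902 for AFT1, an iron-responsive transcription factor, and 0.839 for SIT1, a transporter of iron siderophores. It was 0.814 for ECM33, a cell wall protein, 0.806 for NHX1, an endosomal sodium and proton exchanger, and 0.803 for TYE7, a transcription factor of glycolytic genes. Spearman's rho was between 0.652 (NHX1) and 0.849 (AFT1). Without the 2 libraries farthest from the median of CLN3, WT replicate 2 and L38P replicate 1, r was 0.852, 0.797, 0.779, 0.688 and 0.731 in the same order. Within groups, after the group means were taken away, r was 0.831 for AFT1 and 0.636 to 0.769 for the other 4. The points share libraries, groups and scaling, and the 5 were picked as the highest of 5212, so these values describe the 24 libraries and carry no p.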
